A study of Rattus norvegicus with 6 samples.

Results

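Rheb and 9 genes of the mTORC1 pathway were followed in RNA-seq libraries of neonatal rat cardiomyocytes, as 10 of the 22250 genes in the deposited table. The genes were found by name, each name had 1 row, and all 10 had enough reads to be tested. They are the activator Rheb, its inhibitors Tsc1 and Tsc2, the complex genes Mtor, Rptor, Mlst8 and Rictor, the mTOR inhibitor Deptor, and the effectors Rps6kb1 and Eif4ebp1. The set was chosen by the read counts of Rheb in this same contrast, which had already shown a small difference between the treatments, and by pathway membership for the rest. The values of Rheb are therefore given as a description with no test, and the other 9 genes, picked for their place in the pathway, are tested.

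The cells were heart muscle cells freed with collagenase from the hearts of wild-type Sprague-Dawley rats aged 1 day and grown in medium with foetal bovine serum. In one group of 3 libraries the cells had received 3Cl-HBA (40 µM, for 48 h), a compound that the series title ties to activation of the hydroxycarboxylic acid receptor HCAR1, and in the other group of 3 the solvent DMSO. The labels do not say that the libraries came from separate cultures or animals, so the p-values speak only for the spread between these samples, which may be technical. Libraries held 14607337 to 17202191 reads assigned to genes after 3Cl-HBA and 13240800 to 14499065 in DMSO; the shallowest treated library thus exceeded the deepest in DMSO.

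mTORC1 is a protein kinase complex on the surface of the lysosome that couples growth factors and nutrients to protein synthesis. Rheb, a small GTPase, switches the kinase on when bound to GTP, and the TSC complex switches Rheb off by speeding its hydrolysis of GTP, while amino acids act through the Rag GTPases, which bring the complex to the lysosome. In heart muscle the pathway is known for its part in cell growth, and most of its regulation acts on proteins and their phosphorylation, which RNA levels do not measure.

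The cultures carried heart muscle RNA together with RNA of other heart cells. The 8 cardiomyocyte markers, such as Myh6 and Tnnt2, summed to 24494 to 24838 reads per 1000000 (CPM) after 3Cl-HBA and 24334 to 26016 CPM in DMSO, and all 8 had reads. The 6 fibroblast markers summed to 15068 to 15339 CPM after 3Cl-HBA and 14943 to 15830 CPM in DMSO. Markers of smooth muscle and pericytes summed to 2022 to 2059 CPM after 3Cl-HBA and 1969 to 2170 CPM in DMSO, those of endothelium to 527 to 555 CPM after 3Cl-HBA and 507 to 584 CPM in DMSO, and those of macrophages and leukocytes to 309.7 to 320.1 CPM after 3Cl-HBA and 286 to 312.5 CPM in DMSO. Schwann cell and neuronal markers (62.3 to 76.2 CPM after 3Cl-HBA, 62.3 to 65.8 CPM in DMSO) and erythroid markers (33.6 to 44.0 CPM after 3Cl-HBA, 32.6 to 34.3 CPM in DMSO) were the least abundant. No matched marker lacked reads, Pecam1 was not matched by name, and the ranges of the 2 groups overlapped for each of these 7 cell types. In such bulk samples fewer cells of a type and less RNA per cell cannot be told apart, and which cells the pathway transcripts came from was not measured.

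Rheb was higher in each 3Cl-HBA library than in each DMSO library. Rheb (ENSRNOG00000050578, chromosome 4, 6827429 to 6873383, plus strand, in the coordinates of the table, for which no genome build is given in the sources used here) reached 146.7, 147.8 and 152 CPM after 3Cl-HBA, against 132, 131 and 125 CPM in DMSO. The 3 treated libraries lay within a factor of 1.04 of each other and the 3 DMSO libraries within 1.06, so the libraries of a group were close together. Mean levels were 149 ± 2.91 CPM after 3Cl-HBA and 129 ± 4.04 CPM in DMSO (SD, n = 3 each), a level 15.2% higher after 3Cl-HBA. The log2 fold change, 3Cl-HBA over DMSO, was 0.20. Groups that do not overlap were common among all genes, at 10.5% of the 13903 tested, and 5.24% had 3Cl-HBA on the higher side. No gene of the 13903 passed an adjusted p of 0.05 in edgeR's quasi-likelihood test.

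The start of Rheb is shown because the difference described above is that of its transcript. The window, taken from RefSeq on the rat assembly GRCr8, covers 250 bases before the annotated start and 50 after it, at chr4:11013133-11013432 on the plus strand, and it is written 5′ to 3′ with an E-box (CACGTG) and a GC box (GGGCGG) in capitals.
Rheb: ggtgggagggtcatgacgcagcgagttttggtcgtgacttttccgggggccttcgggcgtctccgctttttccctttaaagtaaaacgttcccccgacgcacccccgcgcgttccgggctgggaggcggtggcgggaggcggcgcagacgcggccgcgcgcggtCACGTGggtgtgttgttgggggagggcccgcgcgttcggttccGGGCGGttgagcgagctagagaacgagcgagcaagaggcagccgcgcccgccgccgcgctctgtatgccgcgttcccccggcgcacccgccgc
The E-box, the core sequence bound by MYC and by the lysosomal gene regulators TFEB and TFE3, begins 86 bases before the start, and the GC box, the core of SP1 sites, 43 bases before it. Both strands were searched, and the motifs do not overlap. Of the 7 pathway genes with a promoter window, Rheb alone held CACGTG, against 6.42% of 33469 rat promoter windows of the same length. GGGCGG was found in 4 of the 7, namely Rheb, Mtor, Rictor and Tsc2, against 33.1% of all windows. The cAMP response element TGACGTCA was found in 0 of the 7 and in 1.83% of all windows. A match describes these letters and says nothing of binding.

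**Figure D1:**
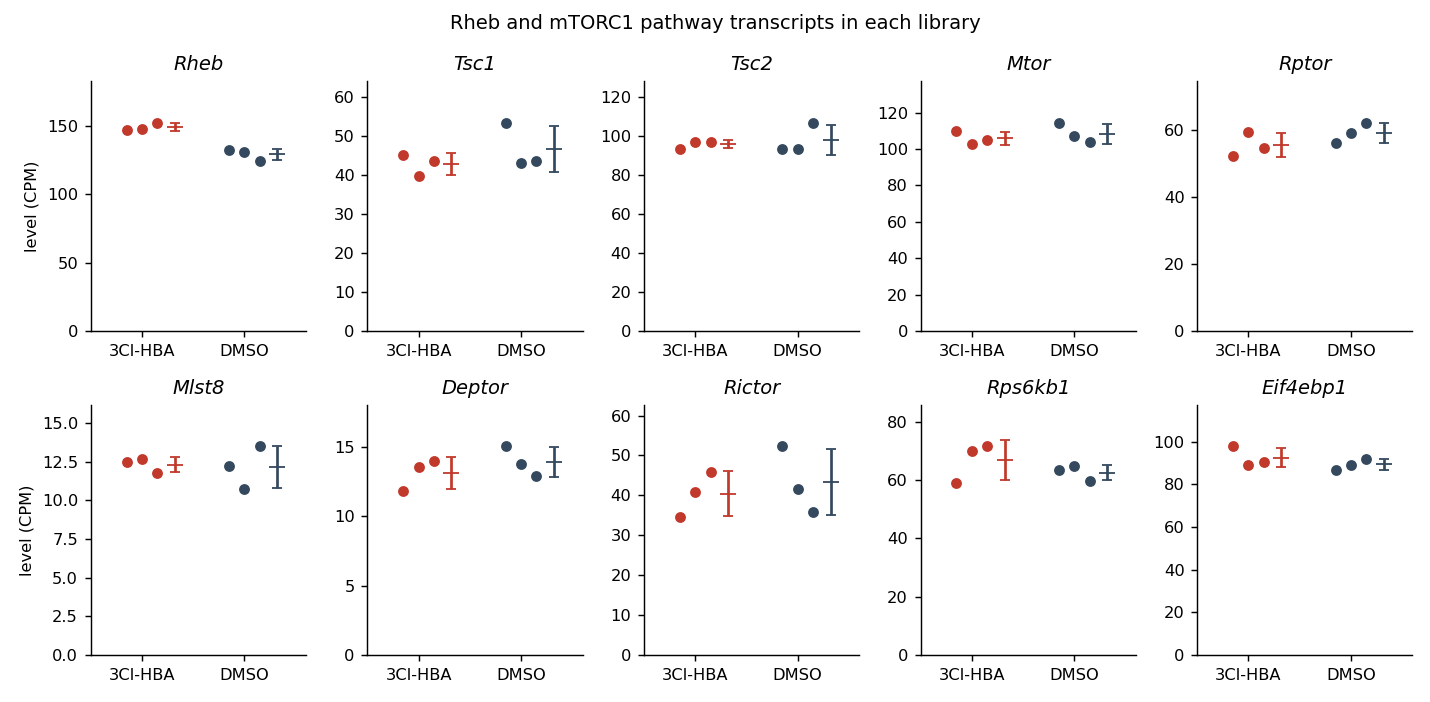
Level of each of the 10 transcripts in CPM (vertical axes, each from 0), with 1 point per library, 3Cl-HBA in red on the left and DMSO in dark blue on the right, and the mean with its SD of 3 libraries beside the points. The points of the 2 groups lie apart for Rheb and overlap for each of the other 9 genes.

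The question was whether the difference in Rheb was shared by its inhibitors, by the members of the complex or by its effectors. Of the other 9 genes, 0 passed the edgeR test, 0 had an unadjusted p under 0.05 and 0 had groups that did not overlap, against 0%, 5.11% (2.52% higher and 2.59% lower) and 10.5% of all tested genes. DESeq2 also gave 0 of the 9 at an adjusted p of 0.05, against 0% of all genes, and 0 at an unadjusted p under 0.05, against 2.24%. Log2 fold changes of the 9 ran from -0.12 (Tsc1) to 0.097 (Rps6kb1), with 3 above 0 and 6 below. Their median was -0.035, where that of all tested genes was -0.00051, and their median absolute log2 fold change was 0.083, where that of all tested genes was 0.069. The smallest unadjusted p among the 9 was 0.131, and edgeR adjusted p were 0.983 to 0.998.

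The 95% intervals show how large an undetected difference between these libraries could be. They rest on the spread between these samples, which may be technical, and do not bound differences across separate cultures or animals. All 9 intervals lay inside a 1.5-fold change in either direction. For 6 genes (Tsc1, Tsc2, Mtor, Rptor, Deptor and Eif4ebp1) the upper end lay below 0.20, the log2 fold change of Rheb, and for Mlst8, Rictor and Rps6kb1 the interval held that value. Rheb was chosen for the size of its difference, so its own value is no measure of what the other genes should show.

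**Figure D2:**
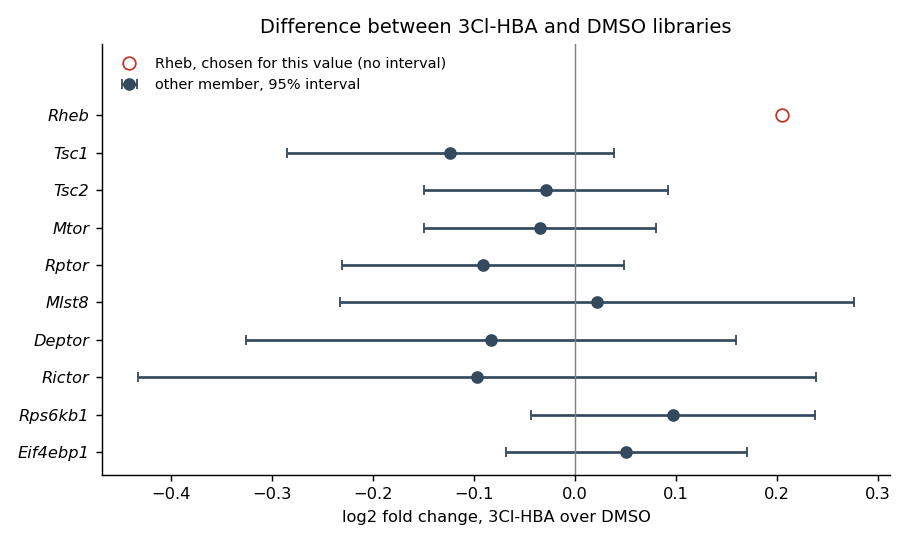
Log2 fold change of each gene, 3Cl-HBA over DMSO (horizontal axis), with 95% intervals from edgeR for the 9 tested genes and an open point with no interval for Rheb, which was chosen for this value. Each of the 9 intervals spans 0, and those of Mlst8, Rictor and Rps6kb1 reach the 0.20 of Rheb.

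Neither inhibitor of Rheb passed the test, and both had log2 fold changes below 0. Tsc1, the scaffold hamartin that stabilises the complex (ENSRNOG00000011470, chromosome 3, 7237192 to 7265145), had 45.2, 39.7 and 43.6 CPM after 3Cl-HBA, against 53.3, 43.0 and 43.5 CPM in DMSO. The groups overlapped, and DMSO replicate 1 was the highest of the 6 libraries. Its log2 fold change was -0.12 (95% interval -0.29 to 0.038, SE 0.080, adjusted p 0.983 in edgeR), and it was -0.016 without DMSO replicate 1. Tsc2, tuberin, the subunit with the GTPase-activating domain for Rheb (ENSRNOG00000011375, chromosome 10, 13961947 to 13996584), had 93.8, 97.3 and 97.0 CPM after 3Cl-HBA, against 93.7, 93.3 and 107 CPM in DMSO. The single library apart from the rest was DMSO replicate 3, and the other 5 lay within a few CPM of each other. For Tsc2 the log2 fold change was -0.029 (95% interval -0.15 to 0.092, SE 0.060, adjusted p 0.993 in edgeR), and it turned to 0.035 without DMSO replicate 3. Tsc2 overlaps Pkd1 on the opposite strand by 62 bases, and without a stated strand setting reads in those bases cannot be told apart.

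The kinase and its partner in mTORC1 also had overlapping groups. Mtor, the kinase itself (ENSRNOG00000009615, chromosome 5, 165263800 to 165373967), had 109.6, 102.7 and 105 CPM after 3Cl-HBA, against 114, 107 and 103.6 CPM in DMSO. These 6 libraries lay within a factor of 1.11, the narrowest of the 10 genes. For Mtor the log2 fold change was -0.035 (95% interval -0.15 to 0.080, SE 0.057, adjusted p 0.990 in edgeR), and its sign turned with each library's length trend removed (0.016). Rptor, raptor, which holds the substrates of mTORC1 (ENSRNOG00000003821, chromosome 10, 108750620 to 109058691), had 52.2, 59.2 and 54.6 CPM after 3Cl-HBA, against 56.1, 59.1 and 62.1 CPM in DMSO. Its lowest level was in 3Cl-HBA replicate 1 and its highest in DMSO replicate 3, with 3Cl-HBA replicate 2 among the DMSO values. Rptor had a log2 fold change of -0.091 (95% interval -0.23 to 0.048, SE 0.069, adjusted p 0.984 in edgeR). Angptl7, on the opposite strand, overlaps the gene span of Mtor by 4523 bases, where reads cannot be told apart without a stated strand setting either.

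The remaining genes of the complexes were less abundant or more variable. Mlst8, a subunit that both mTOR complexes share (ENSRNOG00000009667, chromosome 10, 13839250 to 13845001), had 12.5, 12.7 and 11.8 CPM after 3Cl-HBA, from 183 to 217 reads a library, against 12.2, 10.7 and 13.5 CPM in DMSO, from 156 to 178 reads. The treated libraries fell inside the range of the DMSO libraries, and the log2 fold change was 0.021 (95% interval -0.23 to 0.28, SE 0.13, adjusted p 0.998 in edgeR). Its sign turned when 3Cl-HBA replicate 2 or DMSO replicate 2 was left out. Bricd5, on the opposite strand, overlaps the span of Mlst8 by 1063 bases, and without a stated strand setting reads in those bases cannot be told apart.

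Deptor, a protein that binds mTOR and inhibits both complexes (ENSRNOG00000004328, chromosome 7, 94795214 to 94995809), had 11.8, 13.6 and 13.9 CPM after 3Cl-HBA, from 173 to 232 reads, against 15.03, 13.8 and 12.9 CPM in DMSO, from 170 to 210 reads. The groups overlapped, with 3Cl-HBA replicate 1 the lowest and DMSO replicate 1 the highest. Deptor had a log2 fold change of -0.083 (95% interval -0.33 to 0.16, SE 0.12, adjusted p 0.987 in edgeR). Rictor, the subunit that defines mTORC2 and not mTORC1 (ENSRNOG00000011341, chromosome 2, 56052643 to 56101803), had 34.6, 40.8 and 45.9 CPM after 3Cl-HBA, against 52.3, 41.7 and 35.9 CPM in DMSO. It varied most of the 10 genes within a group, by a factor of 1.32 among the treated and 1.45 among the DMSO libraries. Rictor had a log2 fold change of -0.098 (95% interval -0.43 to 0.24, SE 0.15, adjusted p 0.990 in edgeR), and it turned to 0.059 without DMSO replicate 1.

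The 2 effectors had log2 fold changes above 0 that did not pass. Rps6kb1, the S6 kinase that phosphorylates ribosomal protein S6 (ENSRNOG00000003919, chromosome 10, 73824202 to 73865364), had 59.0, 70.1 and 71.6 CPM after 3Cl-HBA, against 63.5, 64.7 and 59.6 CPM in DMSO. Of the treated libraries, replicates 2 and 3 lay above each DMSO library and replicate 1 lay below each of them. S6 kinase RNA had a log2 fold change of 0.097 (95% interval -0.043 to 0.24, SE 0.070, adjusted p 0.984 in edgeR). Without 3Cl-HBA replicate 1 it was 0.18, with an unadjusted edgeR p of 0.0143 and an adjusted p of 0.913. Eif4ebp1, which blocks the cap-binding factor eIF4E until mTORC1 phosphorylates it (ENSRNOG00000012582, chromosome 16, 68954875 to 68968248), had 97.8, 89.2 and 90.7 CPM after 3Cl-HBA, against 87.0, 89.2 and 92.0 CPM in DMSO. Only 3Cl-HBA replicate 1 stood above the DMSO libraries. Eif4ebp1 had a log2 fold change of 0.050 (95% interval -0.069 to 0.17, SE 0.059, adjusted p 0.986 in edgeR).

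Single libraries gave many of the extremes. DMSO replicate 1 was the highest library for Tsc1, Mtor, Deptor and Rictor, and DMSO replicate 3 for Tsc2, Rptor and Mlst8, so 7 of the 9 genes peaked in 1 of these 2 libraries. 3Cl-HBA replicate 1 was the lowest library for Rptor, Deptor, Rictor and Rps6kb1. Rheb was highest in 3Cl-HBA replicate 3 and lowest in DMSO replicate 3.

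Levels were compared between genes per gene length, in the FPKM of the deposited table, and spanned a wide range. Rheb had the highest mean FPKM over the 6 libraries, 129, which is above that of 96.2% of the tested genes, and Eif4ebp1 followed with 109. Within each group the lowest Rheb library exceeded the highest Eif4ebp1 library, at 136.7 and 118 FPKM after 3Cl-HBA and 115 and 110.2 FPKM in DMSO. Far below came Rps6kb1 with 28.4 FPKM and Tsc2 with 16.9 FPKM, each with all 6 libraries below those of the gene before it. Mtor with 12.3 FPKM and Tsc1 with 11.7 FPKM had overlapping libraries, as did Deptor with 8.65, Rptor with 8.54 and Rictor with 7.62 FPKM. Mlst8 was the lowest at 3.40 FPKM, with each library below each Rictor library.

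Ratios of FPKM within a library set the genes against their partners. Rheb exceeded Tsc2 by 8.34, 8.10 and 8.36 times after 3Cl-HBA, against 7.51, 7.48 and 6.20 times in DMSO. These groups do not overlap, which the choice of Rheb already carries. The ratio of Tsc2 to Tsc1, on which Rheb has no bearing, averaged 1.497 ± 0.13 after 3Cl-HBA and 1.42 ± 0.24 in DMSO (SD, n = 3 each). Rptor over Rictor, the subunits that set mTORC1 and mTORC2 apart, averaged 1.13 ± 0.14 after 3Cl-HBA and 1.15 ± 0.27 in DMSO. Eif4ebp1 over Rps6kb1 averaged 3.84 ± 0.61 after 3Cl-HBA and 3.93 ± 0.27 in DMSO. For these 3 ratios the groups overlapped.

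**Figure D3:**
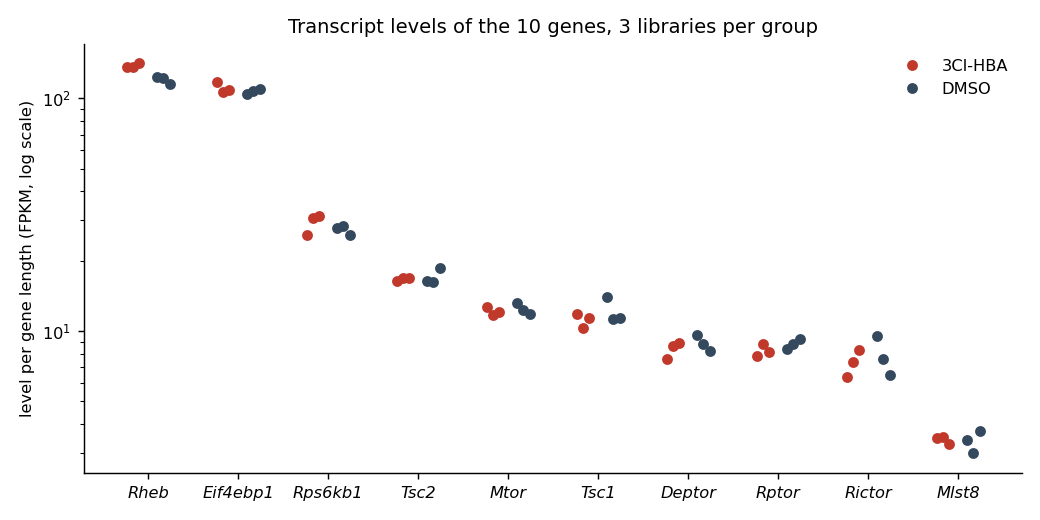
Level of each transcript per gene length in FPKM (vertical axis, log scale), 1 point per library, with 3Cl-HBA in red to the left of DMSO in dark blue, and genes ordered by their mean over the 6 libraries. Rheb and Eif4ebp1 stand near 100 FPKM, Mlst8 near 3.40, and the other genes between.

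Across all tested genes, the median log2 fold change fell with gene length from the class of 1000 to 1500 bases upward. In the shortest class, up to 1000 bases, which holds Eif4ebp1, the median was 0.0041 and 51.5% were above 0. Among tested genes of 1000 to 1500 bases, the class that holds Rheb at 1075 bases, the median log2 fold change was 0.017 and 55.5% were above 0. Among the 966 genes over 6000 bases, the class of Mtor (8680 bases) and Rptor (6699 bases), the median was -0.037 and 29.2% were above 0. In the class of 4000 to 6000 bases, which holds Tsc2 and Rictor, the median was -0.018. With each library's trend on length removed, the log2 fold change of Rheb was 0.19 and those of Rptor, Rictor and Tsc2 were -0.060, -0.076 and -0.0055. For Rheb the value before removal was 0.20. Before removal Mtor had -0.035 and Tsc2 -0.029, beside medians of -0.037 and -0.018 in their length classes. Whether gene length accounts for any of these differences was not tested.

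**Figure D4:**
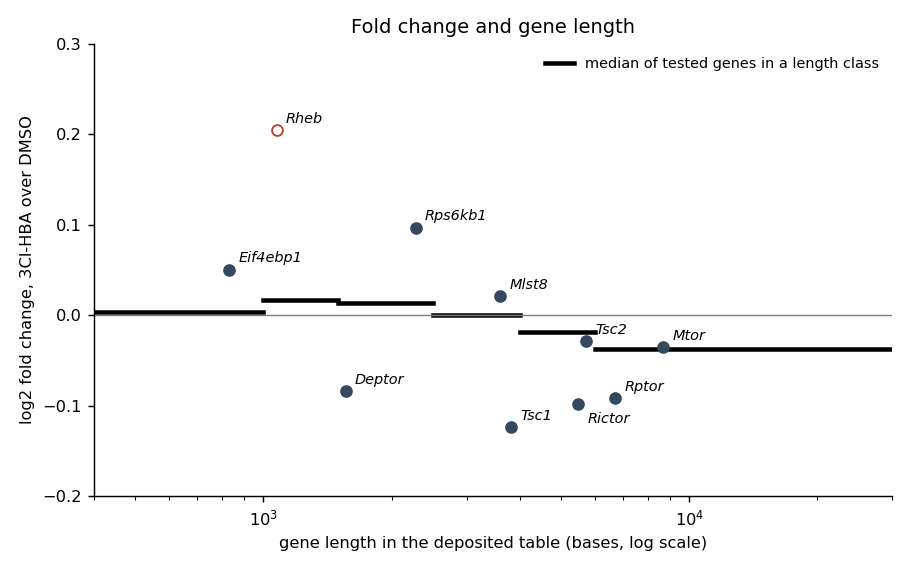
Log2 fold change, 3Cl-HBA over DMSO (vertical axis), against gene length in bases (horizontal axis, log scale) for the 10 genes, with black bars at the median of all tested genes in each length class and an open point for Rheb. The medians run from 0.017 in the class of Rheb to -0.037 in that of Mtor and Rptor, and the shortest class has 0.0041.

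The wider pathway was described with 15 lists holding 129 symbols, of which 126 were matched. Of the 115 tested genes on these lists other than the 10 above, 0 passed, 2 were higher and 3 lower at an unadjusted edgeR p under 0.05 (4.35% together, where 5.11% of all tested genes had such a p), and 51 (44.3%) had log2 fold changes above 0, where 49.8% of all tested genes did. Their median log2 fold change was -0.015, and 8 of the 115 (6.96%) had groups that did not overlap, where 10.5% of all tested genes did. At these shares the lists did not stand above the background of all genes. The 5 genes with an unadjusted p under 0.05 were Sesn2, Psph, Igf1r, Scd and Gla. Of the 8 with groups that did not overlap, Sesn2 and Psph were higher after 3Cl-HBA, and Rragc, Pik3r1, Ulk1, Icmt, Slc3a2 and Gla lower. Over all tested genes, 5.24% were apart on the higher side and 5.22% on the lower.

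Rhebl1, the close relative of Rheb, had far lower levels. It had 5.93, 4.44 and 5.22 CPM after 3Cl-HBA, against 3.94, 4.96 and 4.70 CPM in DMSO, from 55 to 87 reads a library. The groups overlapped, and the log2 fold change was 0.19 (95% interval -0.20 to 0.59, SE 0.20, adjusted p 0.984 in edgeR), so neither a level equal to DMSO nor a difference the size of that in Rheb lay outside its interval. In mean FPKM over the 6 libraries Rheb had 129 and Rhebl1 4.11.

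The other subunits around the kinase had no called gene. Akt1s1, which encodes the mTORC1 inhibitor PRAS40, had 77.6, 83.1 and 76.2 CPM after 3Cl-HBA, against 74.4, 72.4 and 76.8 CPM in DMSO (log2 fold change 0.085, SE 0.062, edgeR adjusted p 0.984). Only 3Cl-HBA replicate 3 fell within the DMSO range. The third TSC subunit, Tbc1d7, had 7.87 ± 1.201 CPM after 3Cl-HBA and 8.23 ± 0.16 CPM in DMSO. Among mTORC2 genes, Mapkap1 (the scaffold SIN1) and Prr5l had 46.7 ± 0.67 and 4.79 ± 0.82 CPM after 3Cl-HBA, and 46.2 ± 0.22 and 5.57 ± 0.15 CPM in DMSO. Genes that help fold and assemble mTOR (Telo2, Tti1 and Tti2) had 39.8 ± 1.19, 37.3 ± 2.19 and 12.3 ± 2.06 CPM after 3Cl-HBA, and 41.8 ± 1.37, 39.2 ± 1.41 and 11.3 ± 0.68 CPM in DMSO. Of the 3 TSC genes 0 had a log2 fold change above 0, of the 5 genes of mTORC1 2, of the 4 of mTORC2 1 and of the 3 assembly genes 1.

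The amino acid branch, which acts beside Rheb, also gave 0 calls. Of 10 tested Rag GTPase and Ragulator genes, 7 were above 0 with a median log2 fold change of 0.028. Of 10 tested GATOR and KICSTOR genes, 3 were above 0 with a median of -0.0075. With each library's length trend removed the 2 medians were 0.023 and -0.0070. The GTPase Rraga had 93.6 ± 4.78 CPM after 3Cl-HBA and 90.0 ± 3.20 CPM in DMSO. The lysosomal anchors Lamtor1 and Lamtor3 had 60.1 ± 3.60 and 52.9 ± 4.05 CPM after 3Cl-HBA, and 58.6 ± 2.52 and 50.7 ± 1.10 CPM in DMSO. The GATOR genes Nprl2, Nprl3 and Sec13 had 21.1 ± 1.85, 24.4 ± 0.59 and 65.7 ± 5.56 CPM after 3Cl-HBA, and 21.6 ± 2.25, 24.4 ± 0.63 and 66.3 ± 3.68 CPM in DMSO. Differences of these 6 genes were smaller than the larger SD of their groups. Lamtor4 was listed with 0 reads in each library. The annotation and the counting program are not given, so whether its transcript was absent is uncertain.

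Among 11 tested sensors of nutrients and stress, 1 gene, Sesn2, had groups that did not overlap (9.09%, where 10.5% of all tested genes did). Sesn2, a leucine sensor that restrains mTORC1 through the GATOR complexes, had 86.2, 90.8 and 85.9 CPM after 3Cl-HBA, against 74.6, 78.9 and 81.7 CPM in DMSO. Its log2 fold change was 0.16 (95% interval 0.039 to 0.28, SE 0.061, with p 0.0107 before and 0.959 after adjustment in edgeR), short of the threshold once adjusted. Of the 11 tested genes of this list, 4 were above 0 and the median was -0.056. Prkaa2, a catalytic subunit of the energy sensor AMPK, had 84.5, 98.7 and 101.8 CPM after 3Cl-HBA, against 109.7, 105 and 91.7 CPM in DMSO, with overlapping groups. Its upstream kinase Stk11 had 82.0 ± 2.38 CPM after 3Cl-HBA and 85.5 ± 5.59 CPM in DMSO. Ddit4, an inhibitor of mTORC1 induced by stress, had 59.8 ± 3.71 CPM after 3Cl-HBA and 62.2 ± 3.29 CPM in DMSO.

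The growth factor branch upstream of the TSC complex had 2 of 12 tested genes above 0, a median of -0.047 and 0 calls. Of all tested genes 49.8% were above 0. The median length of this list (4127.5 bases) lay in the same class as that of Tsc2 and Rictor, where 40.7% of tested genes were above 0. With each library's length trend removed the list median was -0.041. Igf1r, the receptor of insulin-like growth factors, had 56.7, 57.9 and 59.8 CPM after 3Cl-HBA, against 69.9, 58.4 and 63.8 CPM in DMSO. The groups overlapped through 3Cl-HBA replicate 3, and the log2 fold change was -0.14 (95% interval -0.28 to -0.00014, SE 0.069, with p 0.0498 before and 0.959 after adjustment in edgeR). Akt1 and Akt2, kinases that phosphorylate Tsc2, had 250.6 ± 7.50 and 115.5 ± 4.10 CPM after 3Cl-HBA, and 255 ± 9.65 and 112 ± 8.44 CPM in DMSO. Both differed by less than the larger SD of their groups.

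Downstream, 0 of 14 tested translation genes passed, 5 were above 0 and the median was -0.014. The elongation factor Eef2 and the helicase Eif4a1 had 2677 ± 37.4 and 498 ± 13.3 CPM after 3Cl-HBA, and 2719 ± 117 and 487 ± 2.51 CPM in DMSO. Rps6, the ribosomal protein that S6 kinase phosphorylates, had only 11 to 15 reads a library after 3Cl-HBA and 12 to 20 in DMSO. Ribosomal protein genes have many near-identical copies in the genome, and how the authors counted reads shared between copies is not given, so this level is uncertain. Of 10 other mTORC1 substrates 5 were above 0 and 0 passed. Among them Grb10, an adaptor that mTORC1 stabilises, had 778 ± 15.1 CPM after 3Cl-HBA and 764 ± 17.6 CPM in DMSO. The polymerase III repressor Maf1 and the autophagy gene Atg13 had 98.6 ± 3.89 and 62.5 ± 7.22 CPM after 3Cl-HBA, and 104.4 ± 3.57 and 66.7 ± 7.09 CPM in DMSO. Enzymes and partners of Rheb, listed together with Fkbp1a as 8 tested genes with 5 above 0, gave 0 calls. Fkbp1a, the binding protein of rapamycin, had 390.4 ± 12.5 CPM after 3Cl-HBA and 388 ± 25.3 CPM in DMSO. Fkbp8 and Bnip3, both described as binding Rheb, had 142 ± 2.02 and 116.5 ± 5.399 CPM after 3Cl-HBA, and 137.5 ± 8.61 and 116 ± 1.49 CPM in DMSO.

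Genes whose transcription mTORC1 is known to influence were also read, in 3 groups. ATF4 drives amino acid and one-carbon synthesis, and 8 of its 12 tested genes were above 0 with a median of 0.017. Their median length was 2057.5 bases, and of all tested genes of 1500 to 2500 bases 55.5% were above 0. With each library's length trend removed the list median was 0.018. Psph, the last enzyme of serine synthesis, had 23.8, 21.8 and 23.3 CPM after 3Cl-HBA, against 21.0, 19.1 and 17.1 CPM in DMSO, groups that do not overlap (log2 fold change 0.27, SE 0.10, with p 0.0113 before and 0.959 after adjustment in edgeR). Atf4 itself, the one-carbon enzyme gene Shmt2 and the transporter chain gene Slc3a2 had 236.5 ± 10.6, 94.4 ± 0.28 and 238 ± 3.69 CPM after 3Cl-HBA, and 223.5 ± 9.81, 93.6 ± 5.37 and 246 ± 1.94 CPM in DMSO. None of the 3 had an unadjusted p under 0.05 in edgeR, though the groups of Slc3a2 did not overlap and were lower after 3Cl-HBA.

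Of the 10 tested genes of SREBP, the regulator of lipid synthesis, 1 was above 0 and the median was -0.049. The median length of these 10 genes was 4455 bases, and of all tested genes of 4000 to 6000 bases 40.7% were above 0. With each library's length trend removed the list median was -0.034. Scd, the stearoyl-CoA desaturase, had 7.98, 6.26 and 6.24 CPM after 3Cl-HBA, against 8.73, 10.7 and 7.73 CPM in DMSO (log2 fold change -0.42, SE 0.16, with p 0.0127 before and 0.959 after adjustment in edgeR). The groups overlapped through 3Cl-HBA replicate 1. Hmgcs1 and Insig1 had 131 ± 5.94 and 85.0 ± 1.89 CPM after 3Cl-HBA, and 136.5 ± 8.31 and 87.6 ± 9.18 CPM in DMSO.

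Of the 12 tested lysosomal genes driven by TFEB, which mTORC1 holds in the cytoplasm, 9 were above 0 and the median was 0.026. The median length of these 12 genes was 2024.5 bases, and of all tested genes of 1500 to 2500 bases 55.5% were above 0. With each library's length trend removed the list median was 0.011. Gla, a lysosomal galactosidase, had 26.9, 22.3 and 23.8 CPM after 3Cl-HBA, against 28.3, 27.5 and 27.7 CPM in DMSO, and its groups did not overlap (log2 fold change -0.20, SE 0.092, with p 0.0375 before and 0.959 after adjustment in edgeR). The abundant proteases Ctsb and Ctsd had 1357 ± 24.2 and 1191 ± 29.9 CPM after 3Cl-HBA, and 1332 ± 31.3 and 1165 ± 42.3 CPM in DMSO. Gpnmb had 1324 ± 40.3 CPM after 3Cl-HBA and 1313 ± 26.8 CPM in DMSO. These last 3 differed by less than the larger SD of their groups.

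**Figure D5:**
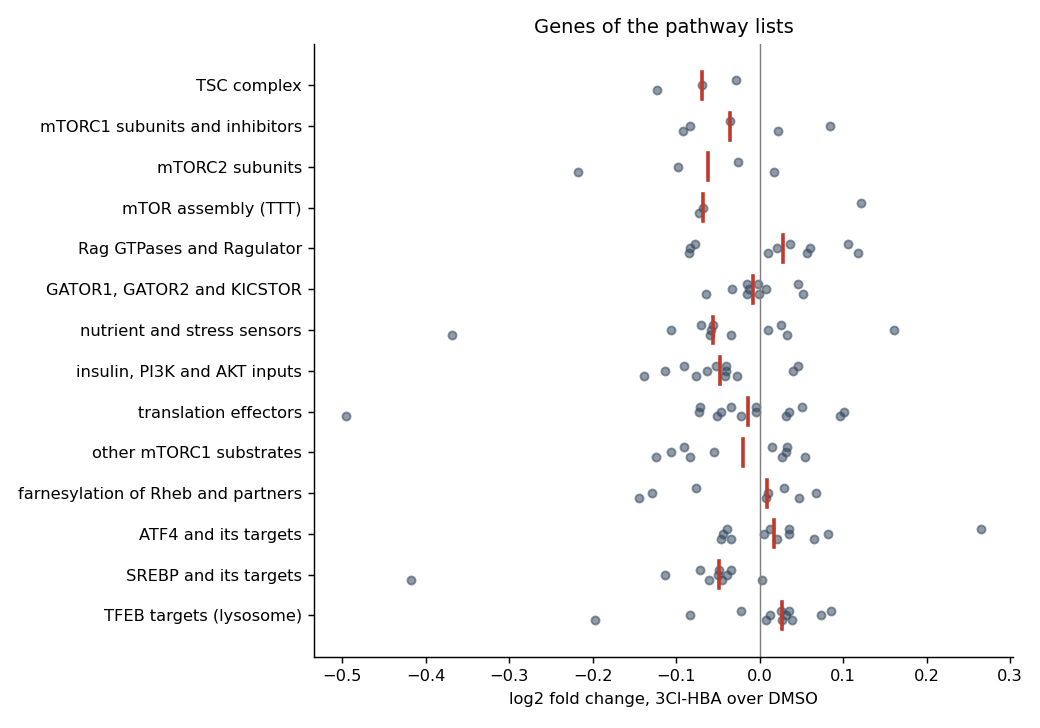
Log2 fold change, 3Cl-HBA over DMSO (horizontal axis), of the tested genes of 14 pathway lists (1 point per gene, Rheb and Rhebl1 not drawn), with a red bar at each list's median. The medians lie between -0.069 (the TSC complex) and 0.028 (Rag GTPases and Ragulator), and the points far to the left, Rps6, Scd and Ddit4l, are of low abundance.

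The genes whose pattern over the 6 libraries came closest to that of Rheb were Mettl14, Sugt1, Phlda1, Slu7 and Pip4k2c. Likeness was the root mean square gap between 2 genes in log2 CPM, each centred on its own mean, over 7779 genes with a symbol and a mean of at least 20 CPM. The gaps of these 5 were 0.016 to 0.027, against a median gap of 0.13. Mettl14, a subunit of the RNA N6-adenosine methyltransferase, had 33.8, 34.2 and 34.3 CPM after 3Cl-HBA, against 30.6, 30.4 and 28.9 CPM in DMSO. Among so many genes some come close by their number alone, and 6 libraries give few points to compare. Of the pathway genes with enough reads for this measure, Rps6kb1 ranked 1181st and Eif4ebp1 1718th of the 7779, with gaps of 0.0965 and 0.105. A gene at 1 constant level in the 6 libraries would have a gap of 0.107 to Rheb, so these ranks show little likeness. The pattern they are set against is the one for which Rheb was chosen. The gaps and ranks are therefore a description and add no separate evidence on whether its difference was shared. Mtor, Tsc2, Rptor, Tsc1 and Rictor ranked from 3813th to 7668th.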

How the data were processed

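The 6 libraries (3 given 3Cl-HBA, 3 given DMSO) were made after depletion of ribosomal RNA (KAPA RiboErase) and read by Illumina sequencing, per the labels' protocols, where the authors' stated tool is DESeq2. Not given in the sources used here are the aligner, counting program, strand setting, genome build and annotation. The deposited table gives read counts per gene, not normalised, and FPKM made by the authors, per the file headers. The FPKM equal the count over gene length and the library's total within a relative gap of 8.2e-08. They were used only to compare levels between genes.

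Columns were assigned through the treatment protocol and the replicate number in the titles. The test was edgeR's quasi-likelihood test (edgeR 4.0.16, R 4.3.3) without a block, on TMM-scaled counts, with robust glmQLFit and a filterByExpr minimum of 10 reads. It tested 13903 genes, and p-values were adjusted by Benjamini-Hochberg over all of them, with a threshold of 0.05. Log2 fold changes are 3Cl-HBA over DMSO, unshrunk, SEs are their size over the square root of F, and CPM use TMM-scaled totals. An exact permutation test of 3 against 3 cannot go below 0.1 and was not used. Alternatives were DESeq2 1.42.0, DESeq2 size factors, library totals, no filter, a replicate block, each library's length trend removed (lowess, span 0.3), and leaving out each library. The procedure was tested on simulated data with planted changes of 1.5-fold or more. Changes as small as those described here were not simulated.

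The 10 genes and the lists were chosen with earlier results of these data known. Besides the 10, the text names the 3 tested genes of each list with the highest FPKM, those with an unadjusted edgeR p under 0.05, and the 5 genes most like Rheb. Some genes that this rule picks are not reported here. Rps6, Lamtor4, Ddit4l, Rragc, Pik3r1, Ulk1 and Icmt were named after their values were seen. Of 129 list symbols, 125 matched by name and 1 through a RefSeq table of assembly GRCr8. Promoter windows came from RefSeq on the same assembly. The promoter motifs were chosen after the values were seen.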

Additional observations from a re-analysis of the deposited data

How the results depend on the processing

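Over all tested genes, edgeR called 0 in the fit as reported, with 711 at an unadjusted p under 0.05, and DESeq2 called 0 with 405. The count became 2 with no filter on low counts, and it ranged from 0 to 8 when single libraries were left out. The 8 came without DMSO replicate 3, and the counts were 2 without 3Cl-HBA replicate 2, 3 without 3Cl-HBA replicate 3 and 1 without DMSO replicate 2. The cause was not tested. Of the 9 genes other than Rheb, 0 were called under each of the 13 alternatives. The log2 fold change of Rheb ranged from 0.18 to 0.22 over them. The sign of Mtor turned with the length trend removed (0.016), with the length trend removed and the replicate block (0.016), and among fits that left out 1 library, which gave -0.070 to 0.0049. Leaving out 1 library also turned the signs of Tsc2 (-0.064 to 0.035), Mlst8 (-0.063 to 0.098) and Rictor (-0.22 to 0.059). Tsc1, Rptor, Deptor, Rps6kb1 and Eif4ebp1 kept their direction under all 13, as did Sesn2, Psph, Igf1r, Scd, Gla, Rhebl1 and Akt1s1, but their size moved with single libraries. Leaving out 1 library gave -0.18 to -0.016 for Tsc1, -0.14 to -0.051 for Rptor, -0.14 to -0.015 for Deptor, 0.044 to 0.18 for Rps6kb1, 0.0097 to 0.077 for Eif4ebp1, 0.091 to 0.30 for Rhebl1 and 0.045 to 0.11 for Akt1s1. Each of the 5 genes with an unadjusted edgeR p under 0.05 lost it in at least 1 such fit. The highest p was 0.0745 for Sesn2 and 0.354 for Igf1r, both without DMSO replicate 1, 0.0806 for Psph without DMSO replicate 3, 0.136 for Scd without DMSO replicate 2 and 0.193 for Gla without 3Cl-HBA replicate 2. In DESeq2 the unadjusted p of Igf1r was 0.0867 and that of Gla 0.0751. Of the 15 list medians, 6 changed sign in some fit. That of Rag GTPases and Ragulator (0.028) was -0.0049 without 3Cl-HBA replicate 3 and 0.070 without 3Cl-HBA replicate 2. That of mTORC1 subunits (-0.035) was 0.0049 without DMSO replicate 1 and 0.016 with the length trend removed, and that of mTORC2 (-0.062) was 0.028 without DMSO replicate 1. For other mTORC1 substrates (-0.020) it was 0.0076 without 3Cl-HBA replicate 1, for GATOR and KICSTOR (-0.0075) 0.00053 without 3Cl-HBA replicate 3, and for enzymes and partners of Rheb (0.0086) -0.029 without DMSO replicate 1 and -0.0088 with the length trend removed. With the replicate block 0 genes were called. Same-numbered libraries did not deviate together (r of -0.11 to -0.0085 over 3 pairs), and 0 of 6 libraries correlated best with its own number. Depth limits Mlst8, Deptor and Rhebl1, with 55 to 232 reads a library.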
